A study of Mus musculus with 7 samples.

Results

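The miR-17-92 cluster is a set of 6 microRNA hairpins that are transcribed together from the mouse host gene Mir17hg, and it is described here arm by arm. The arms were chosen by name, as the 10 rows listed for the cluster (mmu-miR-17-5p, mmu-miR-17-3p, mmu-miR-18a-5p, mmu-miR-18a-3p, mmu-miR-19a-3p, mmu-miR-20a-5p, mmu-miR-20a-3p, mmu-miR-19b-3p, mmu-miR-92a-3p and mmu-miR-92a-1-5p, hereafter without the prefix for mouse), out of 1908 mature miRNA rows in each of 2 deposited tables. All 10 were found in both tables. The study measured small RNAs in cells sorted by fluorescence from dissociated embryonic mouse spinal cord. At E10.5, 2 libraries came from GFP-positive motoneurons of Hb9::gfp embryos, a reporter that places GFP under the promoter of the motoneuron gene Hb9, and 2 came from GFP-negative spinal cells of the same genotype. At E12.5, 1 library came from GFP-positive motoneurons of Hb9::gfp embryos, 1 from tdTomato-positive V2a interneurons of Chx10::cre;Rosa26::LSL::tdTomato embryos and 1 from tdTomato-positive V3 interneurons of Sim1::cre;Rosa26::LSL::tdTomato embryos. The tdTomato label needs only past activity of the Cre driver, and the E12.5 interneurons thus differ from the motoneurons in reporter and driver as well as in cell type. The labels do not say how many embryos were pooled, nor whether the replicates were sorted or bred separately. The p-values below therefore weigh group differences only against the spread among these libraries, and that spread may be technical.

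In animal cells a miRNA hairpin is cut into a short duplex, of which the guide arm is loaded into an Argonaute protein and the passenger arm is mostly lost. The guide finds messenger RNAs mainly through its seed, the bases next to its 5′ end, so arms with the same seed share targets. In mice miR-17-92 is known for promoting proliferation and survival: miR-17 and miR-20a repress the cell cycle inhibitor Cdkn1a and the pro-apoptotic gene Bcl2l11, and loss of the cluster from motoneuron progenitors leads to death of limb-innervating motoneurons. These statements are background and were not measured here.

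The 6 guide arms fall into 4 seed groups, and their sequences are shown because the near-identity of some arms bears on how far their values can be told apart. Sequences are from RefSeq (build GRCm38.p6), written 5′ to 3′ with the seed, bases 2 to 8, in capitals. miR-17-5p and miR-20a-5p share a seed, miR-19a-3p and miR-19b-3p share another, and miR-18a-5p and miR-92a-3p each have their own.
miR-17-5p: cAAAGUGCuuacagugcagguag
miR-20a-5p: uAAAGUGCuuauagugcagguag
miR-18a-5p: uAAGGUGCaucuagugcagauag
miR-19a-3p: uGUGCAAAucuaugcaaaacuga
miR-19b-3p: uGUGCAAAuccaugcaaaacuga
miR-92a-3p: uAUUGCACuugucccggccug

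The 4 other members are the passenger arms of the miR-17, miR-18a, miR-20a and miR-92a-1 hairpins, with seeds that no guide of the cluster carries.
miR-17-3p: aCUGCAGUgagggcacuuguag
miR-18a-3p: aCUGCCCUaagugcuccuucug
miR-20a-3p: aCUGCAUUacgagcacuuaaag
miR-92a-1-5p: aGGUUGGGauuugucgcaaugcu

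Mir17hg is a non-coding gene at chr14:115042879-115046727 on the plus strand (GENCODE M21, build GRCm38), with 1 annotated transcript. All 6 hairpins lie in its exon 2 within 836 bases, in the order Mir17, Mir18, Mir19a, Mir20a, Mir19b-1 and Mir92-1. The first hairpin, Mir17 (chr14:115043671-115043754), and the last, Mir92-1 (chr14:115044427-115044506), are shown with their arms in capitals because the ratio of their arms is followed through the 7 libraries.
Mir17: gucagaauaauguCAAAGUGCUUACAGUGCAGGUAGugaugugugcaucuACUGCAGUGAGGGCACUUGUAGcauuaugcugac
Mir92-1: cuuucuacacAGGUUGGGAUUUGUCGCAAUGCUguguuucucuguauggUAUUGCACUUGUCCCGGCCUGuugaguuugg
In miR-17 the guide lies on the 5′ side of the hairpin, and in miR-92a it lies on the 3′ side. The deposited tables give no coordinates, and the miR-92a-3p row also counts the X-linked copy Mir92-2.

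Some members cannot be separated cleanly from their relatives. miR-17-5p and miR-20a-5p differ at 2 positions, counted from the 5′ end, namely 1 and 12, and miR-17-5p differs from miR-106a-5p of the miR-106a-363 cluster on the X chromosome at position 10 alone. The E10.5 table puts miR-17-5p, miR-20a-5p, miR-106a-5p and miR-20b-5p in the same group of rows that share reads, and how the reads divide among the 4 is uncertain. miR-19a-3p and miR-19b-3p, which differ at position 11, form another such group. So do miR-18a-5p and miR-18b-5p, which differ at positions 18 and 20. The same mature miR-19b-3p and miR-92a-3p are also encoded on the X chromosome (Mir19b-2 and Mir92-2), so these rows do not measure Mir17hg alone.

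Each E10.5 library held 493223 to 802743 reads assigned to miRNAs and each E12.5 library about 3603082 to 4605043. Where a count is 0, the level may still be as high as 3 reads, equal to 3.74 to 6.08 RPM (reads scaled to the library total) at E10.5 and 0.667 to 0.844 TPM (the same with a correction for length) at E12.5, counting error only. Replicates had a Pearson correlation of 0.975 in motoneurons and 0.984 in GFP-negative cells over 492 miRNAs, against 0.844 to 0.878 between the groups. The motoneuron marker miR-218-5p reached 177885 and 200305 RPM in motoneurons, against 6623 and 7315 RPM in GFP-negative cells. The pan-neuronal markers miR-124-3p, miR-9-5p and miR-128-3p summed to 27119 and 33888 RPM in motoneurons, against 25693 and 21770 RPM in GFP-negative cells. Most of that sum was miR-9-5p, and the 3 rows differed. The log2 fold change was 2.12 for miR-124-3p (adjusted p by limma = 0.00181) and 0.38 for miR-9-5p (adjusted p by limma = 0.124). For miR-128-3p it was 0.0068 (adjusted p by limma = 0.98). The GFP-negative libraries also held 7 of 7 mesenchymal and smooth muscle marker rows at higher levels, with a summed level of 416 to 1540 RPM in motoneurons and 80353 to 92888 RPM in GFP-negative cells and no marker at 0 in any library. The 3 muscle markers summed to 129 to 352 RPM in motoneurons and 3778 to 4173 RPM in GFP-negative cells, and the 3 sensory neuron markers to 1971 to 2325 RPM in motoneurons and 9171 to 9535 RPM in GFP-negative cells. The blood markers miR-451a and miR-144-3p summed to at most 12.46 RPM in motoneurons and at most 28.3 RPM in GFP-negative cells, with miR-144-3p at 0 in both motoneuron libraries. The endothelial marker miR-126a-3p had 501 and 288 RPM in motoneurons, against 957 and 663 RPM in GFP-negative cells (log2 fold change -1.07, adjusted p by limma = 0.0344). The ratio of means was 0.0113 for the mesenchymal, 0.0605 for the muscle, 0.230 for the sensory neuron and 0.302 for the blood markers. It was 0.487 for the endothelial marker and 0.494 for the sum of the 10 arms.

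The E10.5 comparison asked how the arms of the cluster differ between motoneurons and the GFP-negative cells. All 6 guides and 2 of the 4 passenger arms were lower in motoneurons, and no arm was higher (limma, Benjamini-Hochberg adjusted p under 0.05 over the 492 miRNAs that reached 15.2 RPM in at least 2 libraries). The 8 of 10 arms called lower stand beside 30.7% of all tested miRNAs called lower, and 11.6% were called higher. Both motoneuron libraries lay below both GFP-negative libraries for 9 of the 10 arms, against 48.6% of all tested miRNAs. The median log2 fold change was -1.18 over the 10 arms and -0.34 over all tested miRNAs. The summed level of the 10 arms was 60244 and 56337 RPM in motoneurons, which is 6.02% and 5.63% of the library, and 109222 and 126617 RPM in GFP-negative cells, 10.9% and 12.7% of the library. In these bulk samples, fewer cells of a type and less RNA per cell cannot be told apart. The mesenchymal, muscle, sensory and endothelial marker levels above moved with the same contrast, and their part in the result was not tested.

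**Figure D1:**
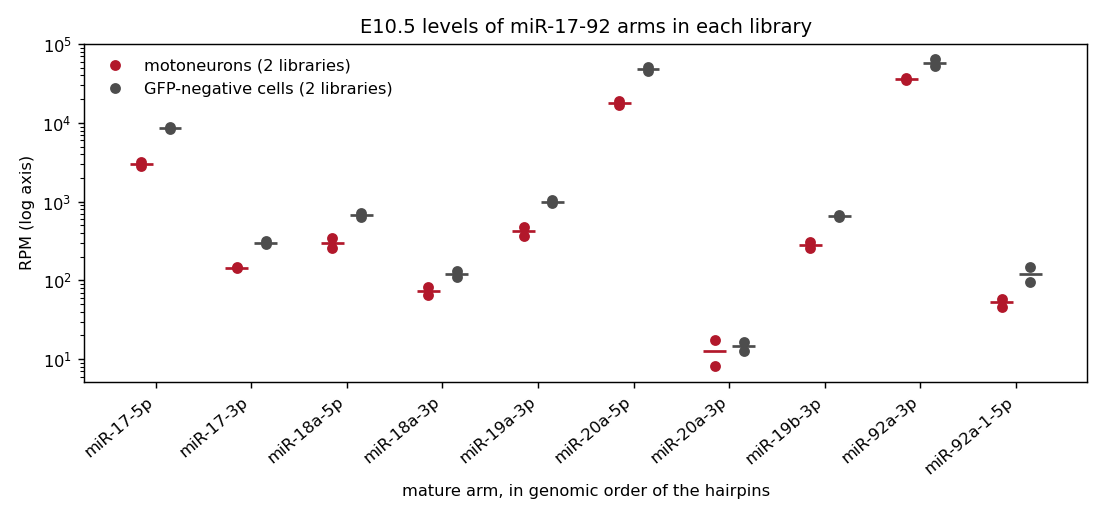
Levels of the 10 miR-17-92 arms in the 4 E10.5 libraries in RPM on a log axis, with motoneurons on the left of each pair and GFP-negative cells on the right; points are libraries and bars are means of 2. The motoneuron points lie below the GFP-negative points for every arm except miR-20a-3p, where they overlap.

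The level of an arm relative to the library total depends on how the libraries are scaled. The median of all tested miRNAs was -0.06 instead of -0.34 with median-of-ratios scaling, 0.05 with totals that leave out the 5 most abundant miRNAs and 0.15 with quantile normalization. The split of calls over all miRNAs, 57 higher and 151 lower, became 85 and 117, 99 and 107, and 114 and 100 in these 3 settings. The number of members called lower became 6, 5 and 5, with none higher. Totals without the mesenchymal and muscle markers moved the other way, with a median of -0.47. In that setting 43 miRNAs were called higher and 165 lower, with 8 members lower and none higher. The 5 miRNAs left out of the totals were miR-10a-5p, miR-10b-5p, miR-218-5p, miR-92a-3p and miR-20a-5p. Leaving them out thus takes the most abundant arms of the cluster itself out of the total. Of the 10 arms, 9 kept a negative log2 fold change in each of 15 alternative settings and also lay below the median of all tested miRNAs in each.

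miR-20a-5p, a guide with the miR-17 seed, had 18756 and 17019 RPM in motoneurons, against 45745 and 50608 RPM in GFP-negative cells. The lower GFP-negative library was still more than 2-fold above the higher motoneuron library. Its log2 fold change was -1.43 (SE 0.14, adjusted p by limma = 0.000555), or -1.09 relative to the median of all tested miRNAs. miR-17-5p, which shares that seed, had 3203 and 2879 RPM in motoneurons, against 8251 and 8952 RPM in GFP-negative cells. Its log2 fold change of -1.50 (SE 0.15, adjusted p by limma = 0.000555) was the largest of the cluster on the deposited RPM scale. Under quantile normalization it was -0.87, and miR-20a-5p (-1.33) and miR-92a-3p (-1.01) were further from 0. The ratio of miR-20a-5p to miR-17-5p was 5.86 and 5.91 in motoneurons and 5.54 and 5.65 in GFP-negative cells, so the pair fell nearly in step, although their reads are partly shared. Summed with the other rows of their shared-read group, the pair had a log2 fold change of -1.35 (adjusted p by limma = 0.00127), within a range of adjusted p of 1.26e-06 to 0.0108 for miR-20a-5p over 15 alternatives.

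The miR-19 guides, which share a seed with each other and with no other row that has a RefSeq sequence, were lower as well. miR-19a-3p had 479 and 366 RPM in motoneurons, against 1048 and 949.8 RPM in GFP-negative cells, with a log2 fold change of -1.25 (SE 0.21, adjusted p by limma = 0.00381). miR-19b-3p had 303 and 258 RPM in motoneurons, against 669.6 and 636 RPM in GFP-negative cells, with a log2 fold change of -1.22 (SE 0.20, adjusted p by limma = 0.00371). Motoneuron and GFP-negative values were apart for either arm, and their sum in motoneurons was 0.426 of that in GFP-negative cells. The ratio of miR-19a-3p to miR-19b-3p was 1.58 and 1.42 in motoneurons and 1.57 and 1.49 in GFP-negative cells. The call of miR-19a-3p missed the threshold under quantile normalization (log2 fold change -0.59, adjusted p = 0.0599, in a range of 0.00177 to 0.0599 over 15 alternatives).

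miR-18a-5p, whose known mouse and human targets include components of TGF-beta signalling, had 343 and 262 RPM in motoneurons, against 648 and 724 RPM in GFP-negative cells. The groups did not overlap, and the log2 fold change was -1.19 (SE 0.22, adjusted p by limma = 0.0059). Its X-linked near-twin miR-18b-5p, in the same shared-read group, had 197 and 266 RPM in motoneurons, against 205 and 225 RPM in GFP-negative cells, which overlap (log2 fold change 0.09, SE 0.25, adjusted p by limma = 0.802). Summed, the pair had a log2 fold change of -0.75 (adjusted p by limma = 0.0174, in a range of 0.00355 to 0.0451 over 15 alternatives for miR-18a-5p). The ratio of miR-18a-5p to miR-18b-5p was 1.74 and 0.985 in motoneurons and 3.16 and 3.22 in GFP-negative cells.

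miR-92a-3p, whose seed it shares with miR-25-3p and miR-92b-3p, had 36859 and 35287 RPM in motoneurons, against 52329 and 64160.0 RPM in GFP-negative cells. The groups did not overlap, and the log2 fold change of -0.68 (SE 0.15, adjusted p by limma = 0.0104) was the smallest in size among the 6 guides on the deposited RPM scale. Under quantile normalization it was -1.01 (adjusted p = 0.000514), further from 0 than every guide but miR-20a-5p. The call missed the threshold with median-of-ratios scaling (log2 fold change -0.41, adjusted p = 0.0663), with totals that leave out the 5 most abundant miRNAs (-0.31, adjusted p = 0.12), without the mean-variance trend (adjusted p = 0.0723) and without motoneuron replicate 1 (adjusted p = 0.0724) or replicate 2 (adjusted p = 0.0933). Over 15 alternatives its adjusted p ran from 9.3e-05 to 0.12, and 10 of them kept the call. miR-17-5p, miR-18a-5p, miR-20a-5p and miR-19b-3p kept theirs in all 15.

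Among the passenger arms, miR-17-3p had 143 and 146 RPM in motoneurons, against 313 and 291 RPM in GFP-negative cells (log2 fold change -1.06, SE 0.23, adjusted p by limma = 0.00978). Its call was lost under quantile normalization (-0.60, adjusted p = 0.0941) and with totals that leave out the 5 most abundant miRNAs (-0.68, adjusted p = 0.0537), the only 2 of 15 alternatives that did so, with adjusted p from 0.00621 to 0.0941. miR-92a-1-5p, the passenger that is specific to the Mir17hg copy of miR-92a, had 58.55 and 46.6 RPM in motoneurons, against 95.2 and 147 RPM in GFP-negative cells. These rest on 47 and 23 reads in motoneurons and 74 and 79 in GFP-negative cells. Its log2 fold change of -1.16 (SE 0.34, adjusted p by limma = 0.0332) kept its call in 8 of 15 alternatives, with adjusted p up to 0.163. Left out in turn, motoneuron replicate 1 gave an adjusted p of 0.0616, motoneuron replicate 2 gave 0.109 and GFP-negative replicate 2 gave 0.163, with a log2 fold change of -0.85.

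The remaining passenger arms did not pass the test. miR-18a-3p had 82.2 and 64.9 RPM in motoneurons, against 111 and 134 RPM in GFP-negative cells, without overlap (log2 fold change -0.73, SE 0.30, adjusted p by limma = 0.0895). miR-20a-3p was at the edge of detection, with 17.4 and 8.11 RPM in motoneurons (14 and 4 reads), against 12.9 and 16.7 RPM in GFP-negative cells (10 and 9 reads). These values overlapped (log2 fold change -0.27, SE 0.50, adjusted p by limma = 0.699), and the sign of its fold change turned in 3 of the 11 alternatives that tested it. It reached the abundance filter in 2 of 4 libraries, the other 9 arms in all 4.

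Ratios within a library do not depend on its total. The ratio of miR-20a-5p to miR-92a-3p was 0.509 and 0.482 in motoneurons, against 0.874 and 0.789 in GFP-negative cells, both measured in RPM. On the log2 scale the difference was -0.75, and the groups did not overlap, at an exact two-sided permutation p of 0.333, the smallest that 2 libraries against 2 can give. Corrected for length, miR-92a-3p made up 63.3% and 64.7% of the 10 arms in motoneurons and 50.2% and 52.9% in GFP-negative cells. miR-20a-5p made up 29.4% and 28.5% in motoneurons and 40.05% and 38.1% in GFP-negative cells, and miR-17-5p 5.02% and 4.82% in motoneurons and 7.22% and 6.74% in GFP-negative cells. The shares of these 3 guides did not overlap between the groups, with an exact permutation p of 0.333 for each. Those of miR-18a-5p, miR-18a-3p, miR-19b-3p and miR-20a-3p did not overlap either, while those of miR-17-3p, miR-19a-3p and miR-92a-1-5p did. The shares of a library add up to a fixed total, so they do not move independently. With 2 libraries against 2, the test cannot decide whether the mix differed.

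The guide over passenger ratio of the miR-17 hairpin was 22.4 and 19.7 in motoneurons and 26.4 and 30.7 in GFP-negative cells. That of miR-18a was 4.17 and 4.03 in motoneurons and 5.86 and 5.41 in GFP-negative cells. Both ratios lay lower in motoneurons, by 0.44 (SE 0.28, adjusted p by limma = 0.429) and 0.46 (SE 0.27, adjusted p by limma = 0.406) on the log2 scale. Neither passed the test over 117 hairpins with both arms measured. The miR-20a ratio was 1075 and 2099 in motoneurons and 3557 and 3029 in GFP-negative cells, lower by 1.16 on the log2 scale (SE 0.35, unadjusted p = 0.0252, adjusted p by limma = 0.247), with 4 to 14 reads of its passenger in each library. None of the 117 hairpins, 0%, passed, 20 had an unadjusted p under 0.05, and the lowest adjusted p was 0.0973. With the trend fitted on the level of the weaker arm, 8 hairpins passed, none from this cluster. The ratio of miR-92a-3p to miR-92a-1-5p was 629.5 and 757 in motoneurons and 549.8 and 437 in GFP-negative cells, the other way round from miR-17 and miR-18a. It is not the ratio of a single hairpin, because miR-92a-3p is also encoded on the X chromosome.

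**Figure D2:**
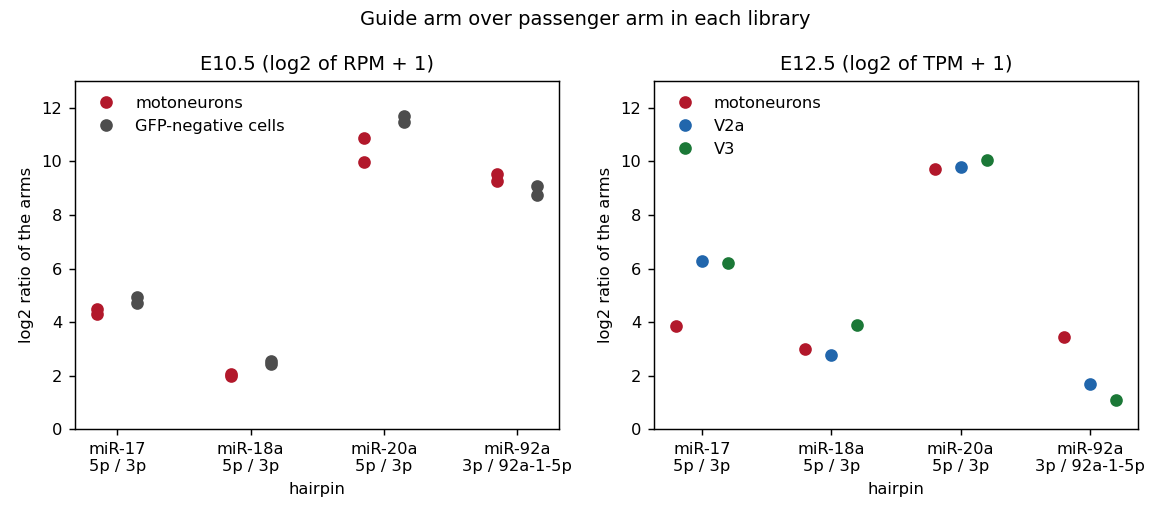
Log2 ratio of the guide over the passenger arm of 4 hairpins, for the E10.5 libraries (left panel, log2 of RPM + 1) and the E12.5 libraries (right panel, log2 of TPM + 1); each point is a library. At E12.5 the miR-17 ratio of the motoneuron library, 3.85, lies below those of V2a and V3, 6.29 and 6.20.

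The cluster has 2 paralogous clusters, whose arms show how far the pattern was shared by related hairpins. The counts below also cover arms, such as miR-106b-3p, that carry no seed of the miR-17-92 guides. miR-106b-25 lies in an intron of the replication gene Mcm7. All 6 of its tested arms lay lower in motoneurons without overlap and 4 were called lower, namely miR-106b-5p (log2 fold change -0.73), miR-106b-3p (-0.90), miR-93-5p (-0.81) and miR-25-3p (-0.59). Its median was -0.77, against -1.18 for miR-17-92. None of the 6 was called with totals that leave out the 5 most abundant miRNAs, nor under quantile normalization, which also turned the sign for miR-106b-5p (0.01) and miR-25-3p (0.04).

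The X-linked miR-106a-363 cluster, which copies miR-17-92 most closely, had 6 of 10 arms above the filter and a median log2 fold change of 0.12. Its 10 rows summed to 7839 and 7279 RPM in motoneurons, against 13639 and 13272 RPM in GFP-negative cells. The ratio of means was 0.562, beside 0.611 for miR-106b-25 and 0.494 for miR-17-92. Its arms miR-106a-5p, miR-20b-5p and miR-18b-5p share reads with members, so their separate changes depend on an uncertain division of reads. Only miR-106a-5p was called lower, with 4925 and 4220.3 RPM in motoneurons, against 10665 and 10279 RPM in GFP-negative cells (log2 fold change -1.20, SE 0.15, adjusted p by limma = 0.00129). It differs from miR-17-5p at a single base and shares its reads, so its own change cannot be told apart from that of miR-17-5p. miR-20b-5p, of the same shared-read group, had 1746 and 1674 RPM in motoneurons, against 1820 and 1889 RPM in GFP-negative cells (log2 fold change -0.12, adjusted p by limma = 0.593), and its sign turned under 3 of 14 alternatives. miR-363-3p, which carries the miR-92a seed, had 741 and 837 RPM in motoneurons, against 737 and 678 RPM in GFP-negative cells (log2 fold change 0.16, adjusted p by limma = 0.535). Under quantile normalization 2 of the 6 tested arms of this cluster were called higher. miR-92a-2-5p, the passenger of the X-linked miR-92a copy, stayed below the filter, with 7 and 8 reads in motoneurons and 6 and 2 in GFP-negative cells.

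**Figure D3:**
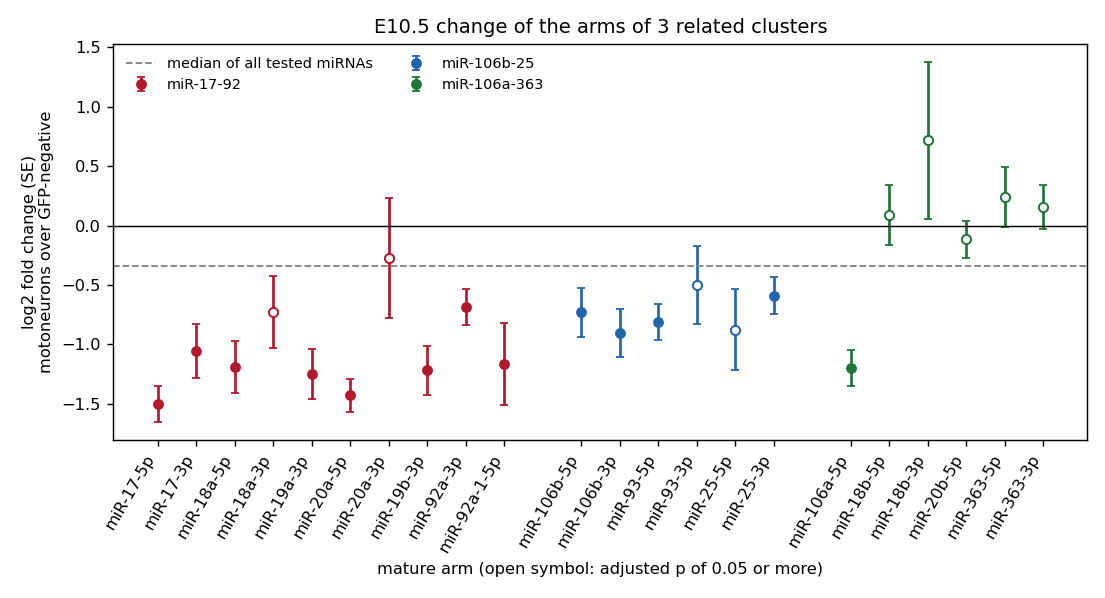
Log2 fold change of motoneurons over GFP-negative cells at E10.5 for the tested arms of 3 related clusters, with bars of 1 standard error; filled symbols passed the test and the dashed line marks the median of all tested miRNAs, -0.34. The arms of miR-17-92 and miR-106b-25 lie below 0 on the deposited RPM scale (miR-20a-3p, miR-106b-5p and miR-25-3p turn positive under quantile normalization), and those of miR-106a-363 lie near or above 0 except miR-106a-5p.

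Summed by seed, the 7 rows with the seed AAAGUGC reached 33237 and 29992 RPM in motoneurons, against 73881 and 79686 RPM in GFP-negative cells. miR-17-5p and miR-20a-5p gave 66.1% and 66.4% of that sum in motoneurons and 73.1% and 74.7% in GFP-negative cells. The 6 rows with the miR-92a seed AUUGCAC reached 55554 and 51493 RPM in motoneurons, against 69718 and 79059 RPM in GFP-negative cells. miR-92a-3p gave 66.4% and 68.5% of it in motoneurons and 75.1% and 81.2% in GFP-negative cells. In that seed group miR-92b-3p moved the other way, at 12958 and 11003 RPM in motoneurons, against 9288 and 7582 RPM in GFP-negative cells (log2 fold change 0.51, SE 0.17, adjusted p by limma = 0.0481). Its call held in 7 of 14 alternatives, with adjusted p from 0.00649 to 0.246.

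The E12.5 libraries compared motoneurons with 2 classes of ventral interneuron, with 1 library each and therefore without a test. A difference was counted when it reached 2-fold on the log2(TPM + 1) scale, and ratios carry 95% intervals for counting error only. The E10.5 replicates spread well beyond counting error, with a chi-square over degrees of freedom of 10.56 in motoneurons and 14.43 in GFP-negative cells. The intervals are thus too narrow for differences between samples. The marker miR-218-5p stood at 104198 TPM in motoneurons, 7558 TPM in V2a and 7282 TPM in V3. The pan-neuronal markers summed to 86520 TPM in motoneurons, 85085 TPM in V2a and 165720 TPM in V3. The mesenchymal markers summed to 195 TPM in motoneurons, 246 TPM in V2a and 306 TPM in V3, with miR-145a-5p at 0 in motoneurons. The muscle markers summed to 125 TPM in motoneurons, 221 TPM in V2a and 61.1 TPM in V3, and the endothelial marker stood at 172 TPM in motoneurons, 395 TPM in V2a and 173 TPM in V3. The sensory neuron markers summed to 108 TPM in motoneurons, 181 TPM in V2a and 193 TPM in V3. The part of these cells in the results was not tested. The cluster as a whole summed to 2113 TPM in motoneurons, 2870.1 TPM in V2a and 2363 TPM in V3, or 0.211%, 0.287% and 0.236% of the libraries. Its 3 most abundant guides by TPM were miR-20a-5p, miR-17-5p and, in motoneurons and V3, miR-19b-3p, with miR-18a-5p in that place in V2a. The E10.5 and E12.5 tables were scaled separately, so stage and table cannot be told apart and no levels are compared between them.

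**Figure D4:**
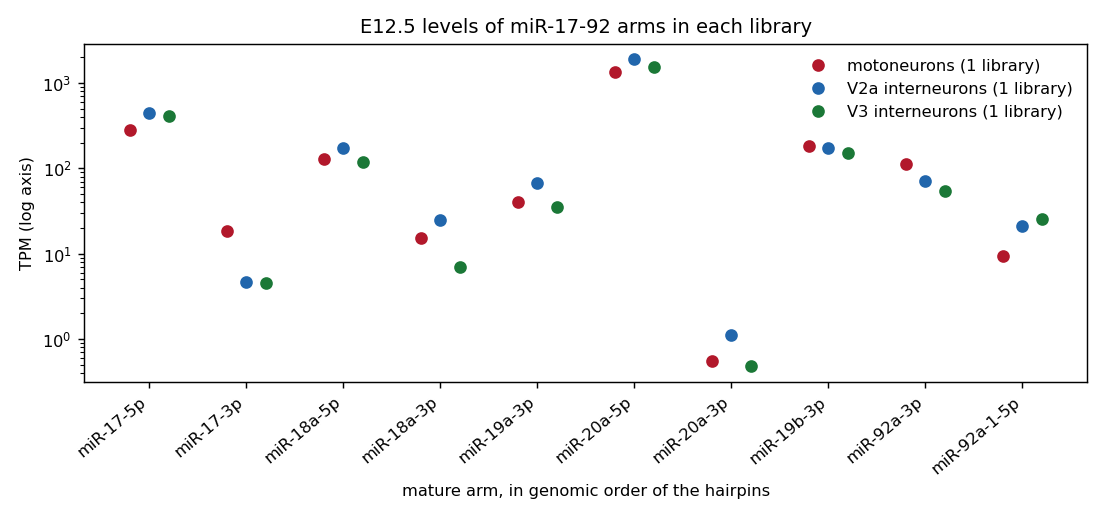
Levels of the 10 miR-17-92 arms in the 3 E12.5 libraries in TPM on a log axis, with motoneurons, V2a and V3 from left to right for each arm; each point is a library. The miR-17-3p point of motoneurons, 18.6 TPM, stands above the V2a and V3 points, 4.67 and 4.57 TPM.

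Of the 9 arms above the filter, 1 was at least 2-fold higher and 1 at least 2-fold lower in motoneurons than in V2a, where 16.1% and 28.1% of 1012 miRNAs were. Against V3, 3 were at least 2-fold higher and 1 at least 2-fold lower in motoneurons, where 28.6% and 14.7% of all miRNAs were. Between V2a and V3, 1 arm was at least 2-fold higher in V2a and none was at least 2-fold lower, where 32.2% and 9.88% of all miRNAs were. With so few arms past 2-fold, the counts stand near the background. The median log2 ratio of the arms was -0.51 for motoneurons over V2a, 0.18 for motoneurons over V3 and 0.28 for V2a over V3, beside -0.30, 0.24 and 0.52 over all miRNAs.

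The arms past 2-fold in motoneurons were mostly passengers. miR-17-3p had 18.6 TPM in motoneurons, 4.67 TPM in V2a and 4.57 TPM in V3, on 66, 21 and 19 reads. The motoneuron level was 3.98 times that of V2a (interval 2.43 to 6.91) and 4.07 times that of V3 (2.44 to 7.26). The level of its guide ran the other way: miR-17-5p had 282 TPM in motoneurons, 443 TPM in V2a and 409 TPM in V3, which puts motoneurons at 0.635 of V2a (0.595 to 0.691) and 0.689 of V3 (0.645 to 0.753). The guide over passenger ratio of miR-17 was thus 15.2 in motoneurons, 94.9 in V2a and 89.5 in V3. On the log2 scale motoneurons lay 2.44 below V2a and 2.35 below V3, and of 247 hairpins 15 and 22 had a difference at least as low. Arm ratios at least 2-fold apart were common among the 247 hairpins, at 47% for motoneurons against V2a and 46.6% for motoneurons against V3. V2a and V3, where 48.2% of hairpins were that far apart, differed by 0.09 in the miR-17 ratio. miR-17-3p stayed more than 2-fold higher in motoneurons under both other scalings, and came to log2 ratios of 0.96 and 0.97 with a pseudocount of 10 TPM.

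miR-92a-1-5p was lower in motoneurons, with 9.42 TPM in motoneurons, 21.3 TPM in V2a and 25.3 TPM in V3, on 35, 100 and 110 reads. The motoneuron level was 0.443 of that in V2a (0.295 to 0.663) and 0.372 of that in V3 (0.25 to 0.556). Under the 3 alternatives miR-92a-1-5p stayed past 2-fold in 1 against V2a and in 2 against V3. Its guide miR-92a-3p had 112 TPM in motoneurons, 71.0 TPM in V2a and 54.7 TPM in V3, so motoneurons stood at 1.57 times V2a (1.36 to 1.85) and 2.05 times V3 (1.75 to 2.46). The ratio of miR-92a-3p to miR-92a-1-5p was 11.9 in motoneurons, 3.34 in V2a and 2.16 in V3. This is the reverse of miR-17, whose ratio was lowest in motoneurons, but miR-92a-3p also has an X-linked source. With totals that leave out the 5 most abundant miRNAs, the log2 ratio of miR-92a-3p in motoneurons came to 0.0088 over V2a, instead of 0.65, and to 0.20 over V3, instead of 1.02.

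Among the remaining arms, miR-20a-5p had 1326 TPM in motoneurons, 1889 TPM in V2a and 1557 TPM in V3, with motoneurons at 0.702 of V2a (0.685 to 0.734) and 0.852 of V3 (0.831 to 0.894). It and miR-17-5p were lower in motoneurons than in either interneuron library under all 3 alternatives. miR-18a-5p had 129 TPM in motoneurons, 175 TPM in V2a and 118 TPM in V3, and miR-19b-3p had 181 TPM in motoneurons, 173 TPM in V2a and 152 TPM in V3. miR-19a-3p had 40.1 TPM in motoneurons, 66.6 TPM in V2a and 35.2 TPM in V3, with V2a at 1.89 times V3 (1.56 to 2.32). The passenger miR-18a-3p was also past 2-fold. It had 15.2 TPM in motoneurons, 24.9 TPM in V2a and 7.06 TPM in V3, with V2a at 3.53 times V3 (2.36 to 5.59) and motoneurons at 2.15 times V3 (1.38 to 3.59). V2a over V3 stayed past 2-fold under all 3 alternatives. Motoneurons over V3 did so under none, with a log2 ratio of 1.01 that came to 0.26 to 0.79. miR-20a-3p was seen in 2 reads in motoneurons, 5 in V2a and 2 in V3, and passed the filter in none of the 3 libraries.

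The mix of arms was also read within the E12.5 table. There, miR-20a-5p made up 62.8% of the 10 arms in motoneurons, 65.8% in V2a and 65.9% in V3. miR-92a-3p made up 5.30% in motoneurons, 2.48% in V2a and 2.31% in V3. Within the miR-92a seed group at E12.5, miR-92a-3p gave 3.47% of the summed level in motoneurons, 1.60% in V2a and 0.86% in V3, and miR-25-3p stood at 12.2 times its level in motoneurons, 24.5 times in V2a and 24.2 times in V3. The E12.5 ratio of miR-19a-3p to miR-19b-3p was 0.222 in motoneurons, 0.385 in V2a and 0.232 in V3. Stage, scaling and read assignment cannot be told apart between these values and those at E10.5.

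**Figure D5:**
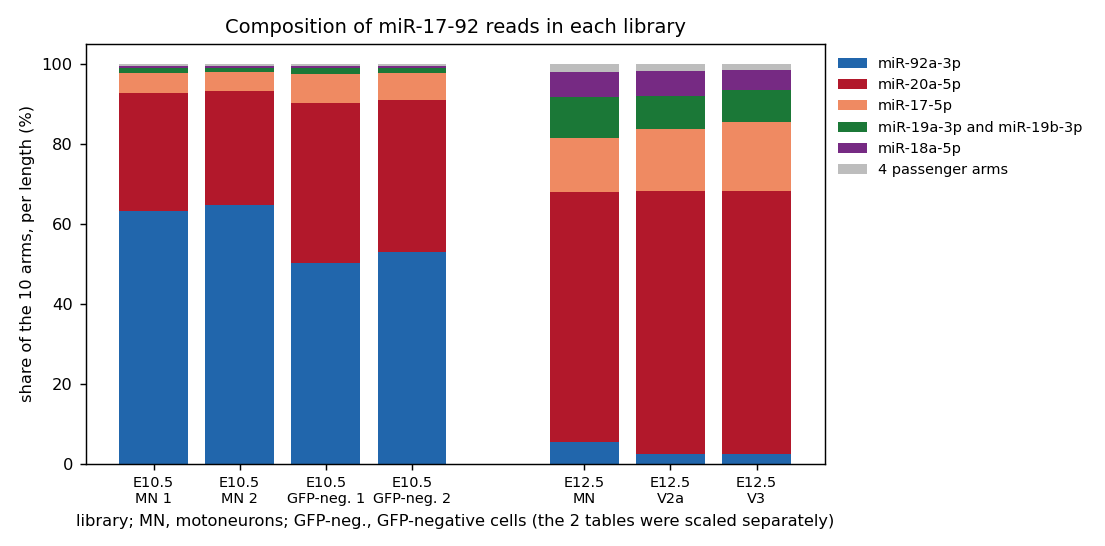
Share of each arm in the length-corrected level of the 10 arms, in percent, for each of the 7 libraries. Among the E10.5 libraries the miR-92a-3p share is 63.3% and 64.7% in motoneurons and 50.2% and 52.9% in GFP-negative cells, and among the E12.5 libraries the miR-20a-5p share is 62.8% to 65.9%.

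The other 2 arms of the cluster were nearly undetected. miR-19a-5p was at 0 in all 7 libraries. miR-19b-1-5p had 0 reads in both E10.5 motoneuron libraries, 5 and 1 in the GFP-negative libraries, 3 in E12.5 motoneurons and 0 in V2a and V3. Both stayed below the filters.

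Across the 7 libraries, the 5 rows closest to the summed arms were miR-93-5p, miR-380-5p, miR-148a-3p, miR-26b-5p and miR-21a-5p. Likeness was the Euclidean distance between log2 profiles centred within each table, over 155 rows with a mean of at least 100 in both tables, and the 5 distances were 0.31, 0.38, 0.40, 0.40 and 0.41, beside a median of 1.32. miR-93-5p, which carries the miR-17 seed, had 3818 and 3560.2 RPM in motoneurons and 6076 and 6908 RPM in GFP-negative cells. At E12.5 it had 247 TPM in motoneurons, 423 TPM in V2a and 315 TPM in V3. Among the members themselves the distance ran from 0.36 for miR-18a-5p and 0.42 for miR-20a-5p to 0.99 for miR-92a-3p and 1.74 for miR-17-3p.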

How the data were processed

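Small RNA libraries were made with a NEBNext kit from total RNA of sorted cells, per the labels' protocols. Reads were aligned with Bowtie2, per the submitters' processing notes; no source used here gives the version, the counting or the annotation. The deposited E10.5 table holds RPM, in which the authors grouped rows with shared reads. The deposited E12.5 table names no unit and was read as FPKM from its values, then scaled to TPM. Depths were recovered from the value of 1 read; 83.4% to 86.5% of E10.5 values were whole reads within 0.05, so no count test was run.

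The E10.5 groups, taken from the sample titles, entered a two-sided fit with limma 3.58.1 (R 4.3.3, mean-variance trend, log2(RPM + 1), Benjamini-Hochberg, threshold 0.05). Rows needed 15.2 RPM or more (10 reads, by the median depth) in 2 libraries. Fold changes on that scale understate the change of low miRNAs. At E12.5 the filter was 2.34 TPM in at least 1 library. Intervals are Clopper-Pearson, cover counting error only, and treat PCR copies as separate molecules. They were built from reads and recovered depths, so they are not centred exactly on the printed ratios of TPM. Sums, shares and tests over libraries used Python 3.11.15. The fit was tested on simulated data. Named miRNAs were all members, the other arms of the cluster, both paralogous clusters, the 5 rows most like the sum and, as markers, fixed lists; miR-92b-3p was added after its values were seen. The members and lists were chosen with earlier results of these data known.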

Additional observations from a re-analysis of the deposited data

How the results depend on the processing

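Over all tested miRNAs at E10.5, 57 were called higher and 151 lower. The count called higher was 34 when only rows at 0 throughout were removed, 99 with totals that leave out the 5 most abundant miRNAs and 114 under quantile normalization, which called 100 lower. Members called lower numbered 5 in each of these 2 scalings, against 8. Leaving out a library gave 27 to 48 called higher, 106 to 125 called lower and 6 to 8 members lower, with 29 called higher without motoneuron replicate 1 and 27 without replicate 2; a lone library is then assumed to vary like the other group. The fold change of miR-20a-3p turned positive with totals that leave out the 5 most abundant miRNAs (0.076), under quantile normalization (0.59) and without motoneuron replicate 2 (0.24). It was -0.45 without GFP-negative replicate 1 and was not tested without the other 2 libraries. With the trend on the weaker arm, an alternative chosen after seeing the data, 5 hairpins had a higher and 3 a lower arm ratio. The causes were not tested.

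At E12.5, a pseudocount of 10 TPM left 0 members past 2-fold between motoneurons and either interneuron library. Over all miRNAs it gave 44 higher and 57 lower for motoneurons over V2a, 89 and 30 for motoneurons over V3, and 68 and 26 for V2a over V3. Median-of-ratios scaling gave 0 members lower against V2a with 226 miRNAs lower, 1 higher against V3 with 250 miRNAs higher, and 154 miRNAs lower for V2a over V3. Totals that leave out the 5 most abundant miRNAs gave 6 members lower against V2a with 476 miRNAs lower, and 1 member higher and 3 lower against V3 with 200 miRNAs higher and 350 lower.

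The labels do not say that replicate numbers mark a shared litter or sort, and same-numbered libraries deviated together with a correlation of 0.26 over 492 miRNAs. With a replicate block 67 miRNAs were called higher and 162 lower, with 8 members lower, no call among the 10 changed and 0 arm ratios called. Depth limits miR-20a-3p most, with 4 to 14 reads in each E10.5 library.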
